A study of Mus musculus with 6 samples.

Results

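The genes described here are 39 genes of glycolysis and pyruvate metabolism, taken as a fixed list of symbols: the glucose transporters, the enzymes of the pathway with their paralogs, the lactate transporters, and the enzymes that route pyruvate into mitochondria. All 39 were found among 31310 named genes of the table, and 37 of them were among the 13207 genes tested. PolyA RNA came from TT-FHAgo2 cells, clonal mouse embryonic stem cells whose Ago2 (Argonaute 2, the protein through which microRNAs act on transcripts) is switched by doxycycline. Routine culture was in 0.1 µg/mL of the drug. For the comparison the cells went without it for 96 h (2 libraries), or received 2.5 µg/mL for 48 h (2 libraries), the dose that the labels give for wild-type Ago2 levels. The comparison asks how these genes differ when Ago2 expression is withdrawn. The drug level and the hours since the change of medium moved together with Ago2, so their parts in any difference cannot be told apart.

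Glycolysis splits glucose into pyruvate and yields ATP without oxygen. Its pyruvate is reduced to lactate and exported, or enters mitochondria through the pyruvate dehydrogenase complex, which the PDK kinases switch off. Pluripotent mouse stem cells are known for a high glycolytic flux, and many of the steps are served by several paralogs that differ in tissue, regulation or affinity.

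Values are FPKM, fragments per kilobase of transcript scaled to the depth of the library, summed over the isoforms of a gene. Each condition has 2 libraries, which carry the numbers 0 and 1 in the files and are given here in that order. A log2 change is the value without doxycycline minus the value with it on the log2(FPKM + 0.5) scale, on which the changes of genes with low values come out too small. Errors of means are SD over n = 2 libraries, and those of changes are standard errors. The tests are from limma, a linear model with a spread shared across genes, with Benjamini-Hochberg adjustment over all 13207 genes at 0.05. Nothing in the labels tells whether the replicate libraries were grown separately, and the p-values therefore cover only the spread between the libraries at hand, part or all of which may be technical. In RNA from whole cultures, fewer cells that express a gene and less of its RNA per cell cannot be told apart.

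The low values of the libraries numbered 1 stepped in whole fragments (100%, within 0.1), at about 47 M fragments in the library without doxycycline and 46.5 M in that with it. In the libraries numbered 0 only 34.3% and 33.9% of such values were whole, where chance gives 20%, so their depth is unknown. Ago2, listed under its older symbol Eif2c2, had 28.7 and 28.8 FPKM without doxycycline, against 35.2 and 36.7 FPKM with it (log2 change -0.32 ± 0.08, limma adjusted p = 0.0287). The mRNA was lower without the drug but still present in both libraries, and the protein was not measured. All 8 markers of embryonic stem cells were expressed, summing to 4073 and 4632 FPKM without doxycycline and 3853 and 4321 FPKM with it. Dppa5a alone had 1785 and 2150 FPKM without it and 1492 and 1817 FPKM with it. Nanog was higher without the drug (log2 change 0.54, limma adjusted p = 0.0367). Zfp42 and Klf4 were lower (-0.49 and -0.42, limma adjusted p = 0.0199 and 0.0279), and the others did not pass. The 22 markers of other lineages were low, with Col3a1 and Afp at 0 in every library. The 7 of mesenchymal cells or fibroblasts summed to 2.36 to 2.97 FPKM, and the 3 of trophoblast to 1.05 to 1.72 FPKM. The 4 mesoderm markers summed to 1.81 and 1.84 FPKM without doxycycline and 0.726 and 0.733 FPKM with it. The 5 endoderm markers summed to 1.48 and 1.62 FPKM without it and 0.709 and 0.9754 FPKM with it. Most of these sums was Kdr (1.31 and 1.47 FPKM without it, 0.396 and 0.442 FPKM with it) and Gata4 (1.27 and 1.39 FPKM, 0.498 and 0.814 FPKM). Of the other mesoderm and endoderm markers, all below 1 FPKM, T and Gata6 were lower without the drug and Mixl1 and Sox17 higher. Mesp1, Foxa2 and Afp overlapped. Of the trophoblast markers, Cdx2 and Gata3 were lower without it and Eomes overlapped. The 3 neural markers summed to 8.28 and 10.8 FPKM without doxycycline and 6.37 and 7.65 FPKM with it. Of the 5 of these 22 markers that could be tested, Thy1 and Pax6 did not pass. Kdr (mesoderm), Nes (neural) and Gata4 (endoderm) passed as higher without the drug, as did 19.7% of all genes tested. They were higher by 3.31-fold, 2.14-fold and 2.03-fold (limma adjusted p = 0.00562, 0.00416 and 0.035). Kdr and Gata4 entered the test only through the libraries without the drug, so the filter favoured a higher result for them. The means of Kdr, Nes and Gata4 without the drug (1.39, 4.63 and 1.33 FPKM) are near or below those of Pgam2 and Pdk4. These are low genes of the glycolysis list that were higher as well, and the part of the markers in the results was not tested.

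Of the 37 tested genes, 5 were higher and 13 lower without doxycycline. Hk1, Pfkm, Aldoc, Pgam2 and Pdk4 rose. Slc2a3, Pfkfb1, Aldoa, Pgk1, Pgam1, Eno3, Pkm, Ldha, Slc16a1, Pdk1, Pdha1, Pdhb and Pcx fell. The abundant housekeeping form of aldolase, phosphoglycerate mutase and pyruvate kinase fell, and each of the 5 rises was in a paralog that was not the most abundant of its step. Slc2a3, Ldha and Pdk1, the most abundant of their steps, fell as well. Hk2, Pfkp, Eno1 and Slc16a3, also the most abundant of their paralogs, did not pass, and the less abundant Eno3 fell. A general shift from abundant to minor paralogs is thus not shown.

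These 18 calls are 48.6% of the 37, where 41.0% of all genes tested passed. The 5 higher calls are 13.5%, against 19.7% of all genes, and the 13 lower calls are 35.1%, against 21.3%. The median log2 change of the 37 was -0.21, beside -0.06 over all genes tested. The groups did not overlap in 31 of the 37, or 83.8%, beside 73.1% of all genes tested. Of these, 10 were higher and 21 lower, beside 33.1% and 40.0% of all genes. Slc2a4 entered the test only through the libraries with doxycycline and Pfkfb4 only through those without it. Among the 35 genes whose means reached 1 FPKM in both conditions, the same 5 and 13 passed.

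How the lower calls stand depends on single libraries and on the scaling. With each of the 4 libraries left out in turn, all 5 higher genes kept their call every time, as did Slc2a3, Aldoa and Slc16a1 of the 13 lower genes. Each of these fits leaves 1 library in a condition, and fewer of all genes were called in them as well. The larger share of lower calls in the list than among all genes was kept in only part of these fits. Without library 0 and library 1 of the cells off doxycycline, the 37 had median log2 changes of -0.21 and -0.21, and all genes -0.01 and -0.08. Without library 0 and library 1 of the cells on it, the 37 had -0.20 and -0.21, and all genes -0.07 and -0.02. With values rescaled to a constant sum over isoforms of at least 200 nt, 8 of the 37 genes were called higher and 7 lower. Of all genes, 29.6% were higher and 13.5% lower under that scaling. With all isoforms of the table in that sum, none of the 37 was called in either direction. Over all genes the first of these scalings moved the median change to 0.11 and the share of higher among called genes to 68.7%, beside 48.1% in the fit as designed and 38.0% with library medians set equal.

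**Figure D1:**
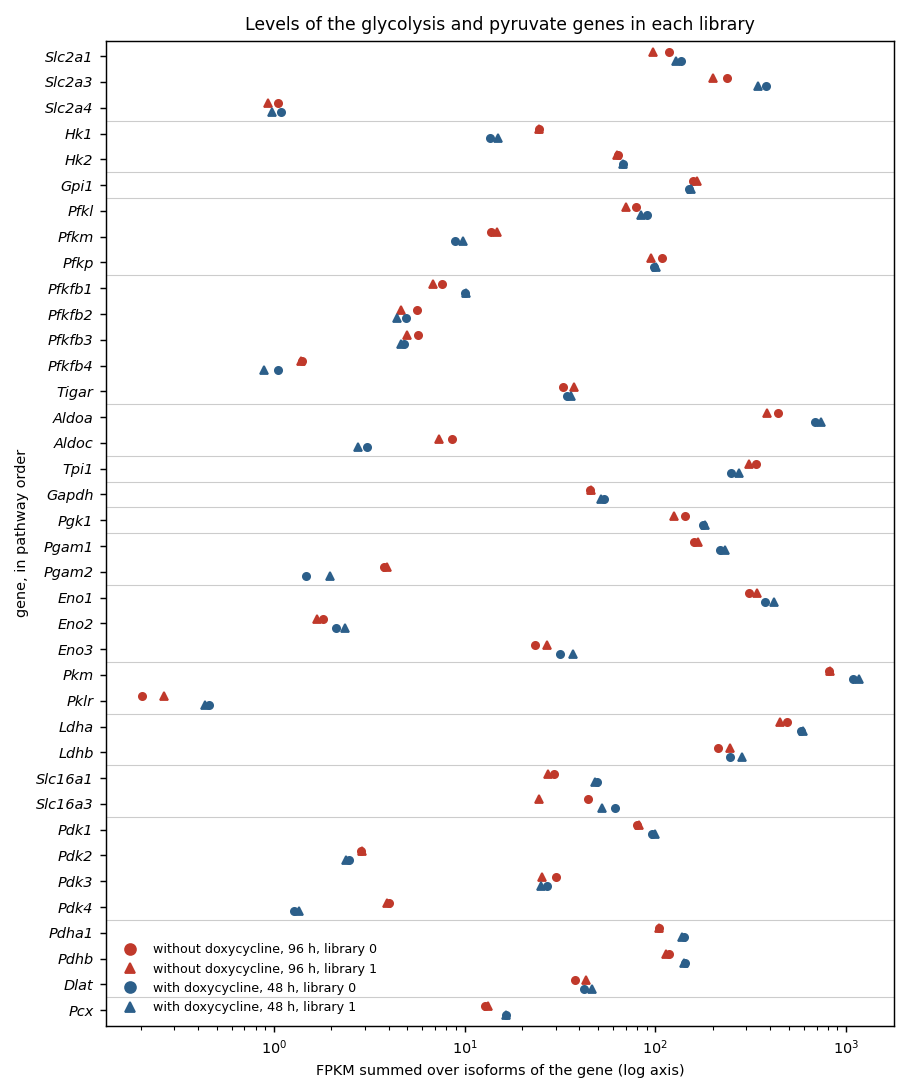
FPKM of each gene (log axis) in the 2 libraries without doxycycline (red, upper row of each gene) and the 2 with it (blue, lower row), in pathway order with lines between steps; circles are library 0 and triangles library 1. Pkm lies highest, with 815 FPKM in its lowest library, and Aldoc, Pgam2 and Pdk4 lie under 10 FPKM with the red points to the right. Hk3, at or near 0, is not drawn.

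Among the 3 glucose transporters of the list, Slc2a3, the high-affinity transporter prominent in neurons and early embryos, was the most abundant. Slc2a3 (chromosome 6, 122677751 to 122752129, minus strand, build NCBIM37) had 238 and 200 FPKM without doxycycline, against 382 and 344 FPKM with it. Both libraries without the drug lay below both with it, and the gene fell by 0.73 ± 0.12 on the log2 scale (limma adjusted p = 0.0102). Slc2a1, the widely expressed basal transporter, had 119 and 97.4 FPKM without doxycycline and 137 and 128 FPKM with it. Its change of -0.30 ± 0.12 did not pass (limma adjusted p = 0.105, 95% interval of the change -0.61 to 0.01). The call turns on library 0 of the cells off the drug: with it left out the change of Slc2a1 was -0.44 and passed (limma adjusted p = 0.0449), and without library 1 of that condition it was -0.16. Slc2a4, the insulin-responsive transporter of muscle and fat, stood near 1 FPKM in all 4 libraries and did not pass. As a share of the 3 transporters, Slc2a1 made up 33.1% and 32.7% without doxycycline and 26.3% and 27.1% with it.

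Glucose is trapped in the cell by hexokinases, of which Hk2, the inducible form of muscle and tumours, was the most abundant. Hk2 (chromosome 6, 82675019 to 82724453, minus strand, NCBIM37) had 63.6 and 62.7 FPKM without doxycycline, against 67.3 and 67.5 FPKM with it. This difference did not pass (log2 change -0.09 ± 0.08, limma adjusted p = 0.379, 95% interval -0.29 to 0.11). Hk1, the form typical of brain and red cells (chromosome 10, 61731603 to 61842656, minus strand), had 24.5 and 24.4 FPKM without doxycycline, against 13.6 and 15.0 FPKM with it. The libraries without the drug were 1.71-fold higher, a rise of 0.75 ± 0.09 on the log2 scale (limma adjusted p = 0.00415). Hk1 took 27.8% and 28.0% of hexokinase FPKM without doxycycline and 16.9% and 18.2% with it. Hk3, a form of blood cells, was listed at 0 in both libraries with doxycycline and at no more than 0.0236 FPKM without it, and was not tested.

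The next step, the isomerase that turns the glucose phosphate into a fructose phosphate, is served by Gpi1 (chromosome 7, 34987124 to 35015308, minus strand). Gpi1 had 158 and 165 FPKM without doxycycline, against 150.2 and 155 FPKM with it. Its change of 0.08 ± 0.08 did not pass (limma adjusted p = 0.461).

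Phosphofructokinase commits sugar to glycolysis, and its subunits come from 3 genes. Pfkp, the platelet form (chromosome 13, 6579014 to 6648221, minus strand), was the most abundant, at 109 and 95.05 FPKM without doxycycline and 98.4 and 101 FPKM with it. Its groups overlapped, and the change of 0.03 ± 0.10 did not pass (limma adjusted p = 0.835, 95% interval -0.22 to 0.28). Pfkl, the liver form, had 78.8 and 69.8 FPKM without doxycycline and 89.9 and 84.1 FPKM with it, and did not pass either (log2 change -0.23 ± 0.10, limma adjusted p = 0.122). Pfkm, the muscle form (chromosome 15, 97923020 to 97962878, plus strand), was the least abundant of the 3. It had 13.7 and 14.7 FPKM without doxycycline, against 8.85 and 9.83 FPKM with it, a rise of 0.58 ± 0.10 (limma adjusted p = 0.00938). Both libraries without the drug lay above both with it.

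The PFKFB enzymes make and break a fructose bisphosphate that activates phosphofructokinase, and Tigar breaks it down. Of these 5 genes, Pfkfb1, a form known from liver, passed. It had 7.56 and 6.80 FPKM without doxycycline, against 10.0 and 10.2 FPKM with it, a fall of 0.47 ± 0.09 (limma adjusted p = 0.0159). Without library 1 of the cells off the drug, or without either library of the cells on it, its call was lost. Pfkfb2, Pfkfb3 and Pfkfb4 ranged from 0.886 to 5.72 FPKM with positive changes of 0.12, 0.17 and 0.37 that did not pass, the last with a limma adjusted p of 0.0785. Tigar, found through its transcript because the table lists it under an older symbol (9630033F20Rik), was the most abundant of the 5. It had 33.0 and 37.6 FPKM without doxycycline, against 34.5 and 36.2 FPKM with it, with overlapping groups and a change of -0.004 ± 0.10.

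Aldolase cleaves the fructose bisphosphate into triose phosphates, and here the paralogs moved in opposite directions. Aldoa, the form of muscle and of most cells (chromosome 7, 133938746 to 133952622, minus strand), had 439 and 384 FPKM without doxycycline, against 689 and 741 FPKM with it. It fell by 0.80 ± 0.11 (limma adjusted p = 0.00634), and the groups were well apart. Aldoc, the brain form (chromosome 11, 78136376 to 78141283, plus strand), had 8.62 and 7.33 FPKM without doxycycline, against 3.06 and 2.75 FPKM with it. It rose by 1.31 ± 0.12 (limma adjusted p = 0.00247), a 2.75-fold difference of means. Aldoc still held only 1.93% and 1.88% of aldolase FPKM without doxycycline, and 0.443% and 0.369% with it.

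Triose phosphates are interconverted by Tpi1 (chromosome 6, 124760604 to 124764314, minus strand), the most abundant gene of the list whose values ran higher without the drug. Tpi1 had 337 and 310 FPKM without doxycycline, against 250.4 and 276 FPKM with it. The groups did not overlap, yet the change of 0.30 ± 0.10 did not pass (limma adjusted p = 0.0683), while it was called higher under the constant-sum scaling over isoforms of at least 200 nt. Gapdh (chromosome 6, 125111871 to 125116485, minus strand), which makes the first high-energy phosphate of the pathway, had 45.6 and 45.8 FPKM without doxycycline and 53.8 and 52.1 FPKM with it. Its change of -0.21 ± 0.08 did not pass (limma adjusted p = 0.0848). Gapdh has many processed copies in the mouse genome, among which reads of the gene may have been split, so its level is uncertain.

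Pgk1, the first ATP-forming enzyme (chromosome X, 103380874 to 103399038, plus strand), had 143 and 124 FPKM without doxycycline, against 177 and 183 FPKM with it. It fell by 0.43 ± 0.10 (limma adjusted p = 0.0262), a call that holds without library 0 of the cells off the drug and is lost without each of the other libraries in turn.

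Phosphoglycerate mutase repeated the split seen in aldolase. Pgam1, the brain and general form (chromosome 19, 41986513 to 41993154, plus strand), had 159 and 167 FPKM without doxycycline, against 217 and 232 FPKM with it, and fell by 0.46 ± 0.09 (limma adjusted p = 0.0151). Pgam2, the muscle form (chromosome 11, 5701643 to 5703736, minus strand), had 3.79 and 3.91 FPKM without doxycycline, against 1.47 and 1.96 FPKM with it, and rose by 0.98 ± 0.14 (limma adjusted p = 0.00667). The share of Pgam2 in the pair was 2.33% and 2.28% without doxycycline and 0.670% and 0.835% with it. A named pseudogene copy, Pgam1-ps2, was listed at 45.5 and 58.0 FPKM without doxycycline and 66.5 and 72.5 FPKM with it, so reads may have been shared with Pgam1. The call of Pgam1 held only without library 1 of the cells off the drug when libraries were left out in turn.

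**Figure D2:**
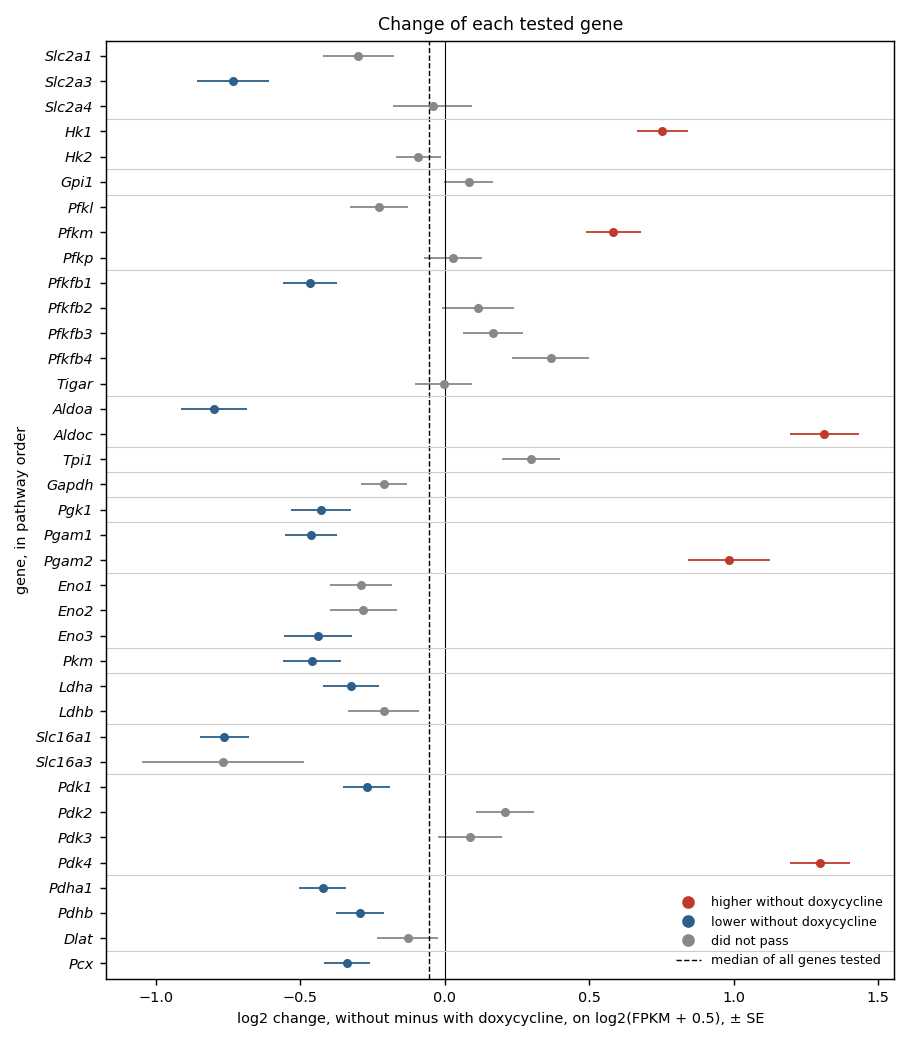
Log2 change without minus with doxycycline of the 37 tested genes, in pathway order, with standard errors; red genes passed higher, blue genes passed lower and grey genes did not pass, and the dashed line is the median of all genes tested, -0.06. Aldoc, Pdk4 and Pgam2 lie near or above 1, and Aldoa, Slc16a1 and Slc2a3 lie between -0.80 and -0.73.

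Enolase makes phosphoenolpyruvate, and Eno1, the general form (chromosome 4, 149610830 to 149622988, plus strand), dominated it. Eno1 had 310.1 and 340.0 FPKM without doxycycline, against 375 and 420.4 FPKM with it, and its change of -0.29 ± 0.11 did not pass (limma adjusted p = 0.0854). Eno3, the muscle form, had 23.3 and 27.0 FPKM without doxycycline, against 31.8 and 36.8 FPKM with it, and fell by 0.44 ± 0.12 (limma adjusted p = 0.0367). That call is lost without library 0 of the cells off the drug or library 1 of the cells on it. Eno2, the neuronal form, stayed between 1.69 and 2.35 FPKM and did not pass.

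Pyruvate kinase, the last step, had the highest level of the list. Pkm, listed as Pkm2 (chromosome 9, 59504383 to 59527182, plus strand), had 815 and 822 FPKM without doxycycline, against 1088 and 1163 FPKM with it. It fell by 0.46 ± 0.10 (limma adjusted p = 0.0206), though each library left out in turn takes the call away. Pklr, the form of liver and red cells, was listed at 0.203 and 0.264 FPKM without doxycycline and 0.456 and 0.437 FPKM with it, and was too low to be tested.

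Transcripts of Pkm hold either of a pair of neighbouring exons of equal length. The upstream exon gives the M1 enzyme of muscle and brain, and the downstream exon gives the M2 enzyme of embryonic and proliferating cells, whose activity is regulated. In the authors' annotation the M1 exon lies at chromosome 9, 59522836 to 59523002, and the M2 exon at 59523375 to 59523541 (plus strand, NCBIM37). The exons are shown because the isoform values below rest on telling them apart. Their sequences come from GENCODE on the later build GRCm38, where they are exon 9 of their transcripts, at chr9:59675029-59675195 and chr9:59675568-59675734. Capitals mark the 64 of 167 bases that differ between them, aligned without gaps, and 61.7% of bases are equal.
M1 exon: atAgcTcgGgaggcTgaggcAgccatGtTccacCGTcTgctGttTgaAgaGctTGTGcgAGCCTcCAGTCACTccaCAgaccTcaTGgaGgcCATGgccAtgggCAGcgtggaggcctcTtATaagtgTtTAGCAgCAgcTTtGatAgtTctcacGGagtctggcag
M2 exon: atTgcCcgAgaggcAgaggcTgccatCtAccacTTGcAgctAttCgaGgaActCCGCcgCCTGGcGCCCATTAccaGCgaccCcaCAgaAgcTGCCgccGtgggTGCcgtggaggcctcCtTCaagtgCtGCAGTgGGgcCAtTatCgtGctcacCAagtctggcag

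The 2224-nt transcript with the M1 exon had 35.9 and 33.3 FPKM without doxycycline, against 16.2 and 15.6 FPKM with it. The 2221-nt transcript with the M2 exon had 779 and 788 FPKM without doxycycline, against 1072 and 1147 FPKM with it. M1 thus ran 2.17-fold higher and M2 lower without the drug, and neither pair of groups overlapped. None of the 32943 isoforms tested passed after adjustment, and the pair did not either, with log2 changes of 1.10 ± 0.11 for M1 and -0.50 ± 0.08 for M2 (limma adjusted p = 0.138 and 0.143). The M1 share of Pkm was 4.41% and 4.06% without doxycycline and 1.49% and 1.34% with it. An exact two-sided permutation test of this share gives p = 0.333, the smallest that 2 against 2 libraries allow. Another 2 assembled isoforms with the M1 exon were listed at 0 in all libraries. The split of fragments between isoforms is an estimate by Cufflinks. Ptbp1, Hnrnpa1 and Hnrnpa2b1, known to bind Pkm RNA beside these exons and looked up after the isoform values were seen, had changes of -0.15, -0.21 and 0.09, none of which passed (limma adjusted p = 0.223, 0.103 and 0.455).

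**Figure D3:**
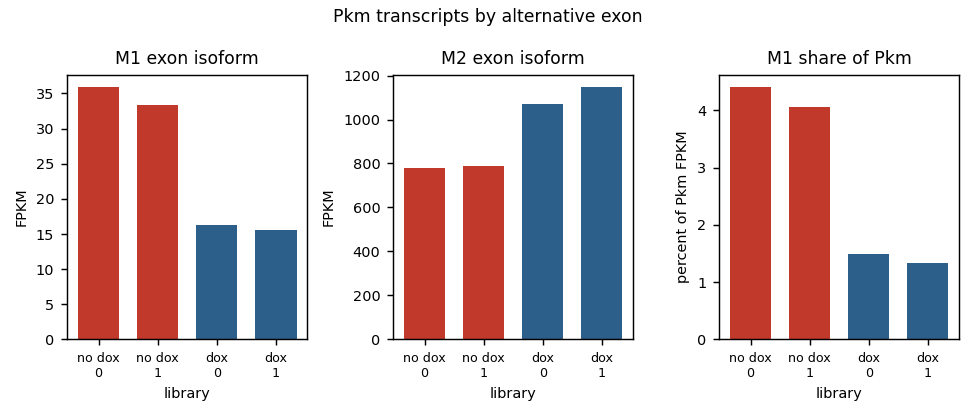
FPKM of the Pkm transcript with the M1 exon (left) and with the M2 exon (middle), and the M1 share of all Pkm FPKM in percent (right), 1 bar per library, libraries without doxycycline in red and with it in blue. The M1 bars stand at 33.3 to 35.9 without the drug and 15.6 to 16.2 with it, while the M2 bars run the other way; axes differ in scale and start at 0.

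Lactate dehydrogenase reduces pyruvate and restores the cofactor of the Gapdh step. Ldha, the form favouring lactate (chromosome 7, 54096845 to 54110997, plus strand), had 490.0 and 452 FPKM without doxycycline, against 582 and 596 FPKM with it. Its fall of 0.32 ± 0.10 lay just inside the threshold (limma adjusted p = 0.0485), and the call is lost without any 1 of the 4 libraries. Ldhb, the heart form, had 214 and 246 FPKM without doxycycline and 246 and 286 FPKM with it, and did not pass (log2 change -0.21 ± 0.12, limma adjusted p = 0.221). The Ldha share was 69.6% and 64.8% without doxycycline and 70.3% and 67.6% with it, overlapping between the groups. The copy Ldha-ps2 was listed at 8.89 and 8.30 FPKM without doxycycline and 12.7 and 14.1 FPKM with it, small beside Ldha.

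Lactate and pyruvate leave the cell through monocarboxylate transporters. Slc16a1, the widespread form (chromosome 3, 104442540 to 104462385, plus strand), had 29.6 and 27.4 FPKM without doxycycline, against 49.4 and 48.03 FPKM with it. It fell by 0.76 ± 0.08 (limma adjusted p = 0.00372), with the groups far apart relative to the spread within them. Slc16a3, the form of strongly glycolytic cells (chromosome 11, 120809794 to 120822182, plus strand), had the higher mean of the pair. It had 44.4 and 24.6 FPKM without doxycycline, against 61.4 and 52.4 FPKM with it. Its mean change was -0.77 ± 0.28 and did not pass (limma adjusted p = 0.0806), and the libraries without the drug lay far from each other. Without library 0 of that condition the change of Slc16a3 was -1.19 and passed (limma adjusted p = 0.00782), and without library 1 it was -0.35 and did not pass. The lower of the values without the drug is that of library 1. Of 10 tested hypoxia targets outside glycolysis, 8 were also lower in library 1 than in library 0 without doxycycline, and 3 of 10 with it. Bnip3 (35.4 and 22.4 FPKM in libraries 0 and 1) and Ankrd37 (5.20 and 3.16 FPKM), picked after their values were seen, are examples. The share of all genes lower in library 1 was not counted, so these targets cannot be set apart from a shift of the whole library. The part of this difference between libraries in the result of Slc16a3 was not tested.

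Pyruvate enters the mitochondrial matrix and meets the pyruvate dehydrogenase complex. Pdha1, the catalytic alpha subunit that the PDK kinases phosphorylate (chromosome X, 156560141 to 156576345, minus strand), had 104.1 and 104.3 FPKM without doxycycline, against 142 and 138 FPKM with it, and fell by 0.42 ± 0.08 (limma adjusted p = 0.0142). Pdhb, the beta subunit (chromosome 14, 8998512 to 9005462, minus strand), was the most abundant of the 3 subunit genes. It had 118 and 113 FPKM without doxycycline, against 143 and 141 FPKM with it, and fell by 0.29 ± 0.08 (limma adjusted p = 0.0405). Dlat, the acetyltransferase core, had 38.0 and 43.4 FPKM without doxycycline and 42.3 and 46.7 FPKM with it, overlapping groups that did not pass. Pdha1 lost its call without either library of the cells on doxycycline, and Pdhb without any 1 library.

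The kinases that switch this complex off differed among themselves. Pdk1, a kinase known as a hypoxia target (chromosome 2, 71711169 to 71741915, plus strand), was the most abundant, at 80.2 and 81.7 FPKM without doxycycline and 95.5 and 100.1 FPKM with it. It fell by 0.27 ± 0.08 (limma adjusted p = 0.0493), a call lost without any 1 library. Pdk4, the kinase known to be induced in fasting (chromosome 6, 5433351 to 5446309, minus strand), had 4.002 and 3.93 FPKM without doxycycline, against 1.28 and 1.35 FPKM with it. It rose by 1.30 ± 0.11 (limma adjusted p = 0.00215), a 3.02-fold difference of means. Pdk2 (2.37 to 2.89 FPKM) and Pdk3 (25.2 to 30.1 FPKM) did not pass. Pdk4 made up 3.41% and 3.45% of the FPKM of the 4 kinases without doxycycline and 1.01% and 1.05% with it.

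Pcx, the carboxylase that makes oxaloacetate from pyruvate (chromosome 19, 4510472 to 4621798, plus strand), had 12.8 and 13.2 FPKM without doxycycline, against 16.5 and 16.5 FPKM with it. It fell by 0.34 ± 0.08 (limma adjusted p = 0.0250), and lost its call without any 1 library.

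**Figure D4:**
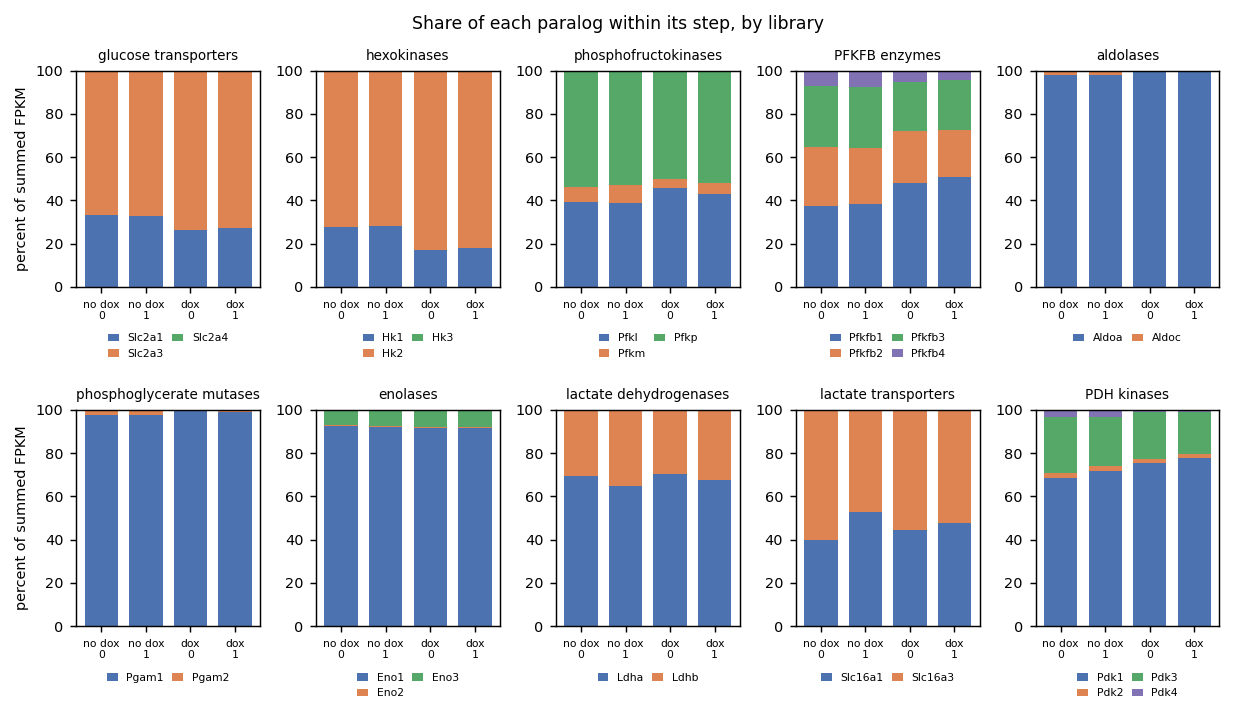
Share in percent of each paralog in the summed FPKM of its step, for 10 steps with several paralogs (pyruvate kinases are not drawn), 1 stacked bar per library with the libraries without doxycycline on the left of each panel. Hk1 widens to 27.8% and 28.0% of hexokinase without the drug, against 16.9% and 18.2% with it, and the shares of lactate dehydrogenases and lactate transporters overlap between the conditions.

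Summed over the list, the genes had 4311.5 and 4155.5 FPKM without doxycycline, against 5302.5 and 5526 FPKM with it. As a share of the summed FPKM of all genes in the library this was 0.959% and 0.856% without doxycycline and 1.04% and 1.03% with it. The groups do not overlap on either measure, and the exact permutation p of 0.333 for each is the smallest this design allows. The 5 most abundant genes (Pkm, Aldoa, Ldha, Eno1 and Tpi1) held 55.4% and 55.5% of the sum without doxycycline and 56.3% and 57.8% with it.

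The paralog shares were tested in the same way. Over 30 shares, which sum to 100% within a step and so are not independent, each exact two-sided permutation p was 0.333 or more, and none could pass. The largest shift in percentage points was that of Pfkfb1, at 37.3% and 38.2% of PFKFB transcripts without doxycycline, against 48.2% and 50.6% with it.

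At the level of isoforms, 111 of 363 assembled isoforms of the list reached a mean of 1 FPKM in a condition. None passed after adjustment, and of all 32943 isoforms tested 0% passed. Before adjustment 26 of the 111 had a limma p under 0.05, or 23.4%, beside 18.4% of all isoforms. The lowest adjusted p among the 111 was 0.138. The 1511-nt form of Aldoa, 82.1% of the gene, had 341 and 315 FPKM without doxycycline, against 583 and 609 FPKM with it. The 3717-nt form of Slc2a3, 91.0% of the gene, had 211 and 180.4 FPKM without doxycycline, against 350.4 and 317 FPKM with it. Both forms carried the lower level of their gene, with the groups apart.

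Hk1 was divided between a 3729-nt form, at 14.2 and 15.8 FPKM without doxycycline and 6.71 and 10.0 FPKM with it, and a 3877-nt form, at 8.14 and 5.65 FPKM without and 6.45 and 2.596 FPKM with it. The groups of the second form overlap. The 1588-nt form of Ldha held 95.4% of the gene, and the 2776-nt form of Pfkm 98.6%. Of the 19 isoforms of Pfkp, 8 reached the minimum for the test, and the largest of them held 40.6% of the gene. Pgk1 (1825 and 1629 nt) and Slc16a1 (4426 and 1475 nt) each had a pair of main forms, and both forms of Slc16a1 were lower in each library without the drug. Of Pfkfb3, a 4954-nt form at 3.11 and 3.22 FPKM without doxycycline and 2.39 and 2.67 FPKM with it was its only isoform among those tested.

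MicroRNA sites were looked up because Ago2 acts through them. Mature sequences from RefSeq (GRCm38.p6) are shown for the families that matter below, with the seed, bases 2 to 8, in capitals. The seeds of miR-291a-3p, of the cluster that dominates mouse embryonic stem cells, and of miR-17-5p share the letters AAGUGC at an offset of 1 base.
mmu-miR-291a-3p: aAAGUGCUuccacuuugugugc
mmu-miR-17-5p: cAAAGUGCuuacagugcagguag
mmu-let-7a-5p: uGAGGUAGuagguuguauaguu

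For each gene the longest 3′ untranslated region in GENCODE (GRCm38) was searched, which covers 37 tested genes of the list among 10144 tested genes in all. An 8mer, a match to the seed with an A opposite base 1, for miR-291a-3p was found in 0 of the 37, beside 3.67% of the 10144 genes. The shorter match to bases 2 to 8 alone was the best site of this family in 5 genes (Slc2a4, Hk1, Pfkp, Ldha and Pdk4), or 13.5%, beside 14.8%. Hk1 and Pdk4 of these rose, and Ldha fell. For miR-17-5p, 8mers were found in 3 genes, or 8.11%, beside 4.59% of all genes: Pdk4, Pfkp and Slc2a4. For let-7a-5p the only 8mer was in Slc2a3 (2.70%, beside 4.26%). The 8mers are shown in capitals with the 22 bases before them, on the minus strand of GRCm38, at chr6:5484939-5484968 for Pdk4, chr13:6581372-6581401 for Pfkp, chr11:69943302-69943331 for Slc2a4 and chr6:122728375-122728404 for Slc2a3.
Pdk4: ggacaggatggaaggaatcaaaGCACTTTA
Pfkp: tttgtaacatagttatttatcaGCACTTTA
Slc2a4: agactccctcctttcctctacaGCACTTTA
Slc2a3: tgaggtctgaggttggaaggctCTACCTCA

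Of the 3 genes with an 8mer for miR-17-5p, Pdk4 rose by 1.30, while Pfkp and Slc2a4 had changes of 0.03 and -0.04 that did not pass. Slc2a3, with the site for let-7a-5p and a further 8mer for miR-16-5p, fell. Aldoc, Pgam2 and Pfkm, which rose, held no 8mer for any of the 5 families searched (also miR-92a-3p and miR-16-5p), nor did Hk1. Shorter sites were present in part of them: Aldoc held a match to bases 2 to 8 for let-7a-5p, and for miR-291a-3p and miR-17-5p a match to bases 2 to 7 with the A. Pfkm and Pgam2 held no site of any class for the 5 families. Genes that fell held such sites too. Slc16a1 and Pdk1 held a match to bases 2 to 7 with the A for miR-291a-3p, and Pdk1 also for miR-17-5p. As the best site for miR-291a-3p, this class was found in 8.11% of the list, beside 3.37% of all genes. For miR-92a-3p, 8mers were in Pgam1, which fell, and in Pfkfb2, which did not pass.

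Promoters, 250 bases before to 50 after an annotated start, were matched in RefSeq (GRCm38.p6) for 37 of the 39 genes. The motifs were ACGTG, the core of the element bound by hypoxia factors, CACGTG, the E-box bound by Myc and its relatives, and GGGCGG, the Sp1 box, on both strands. An E-box also holds ACGTG on each strand, and counts as 2 matches to it. ACGTG was present for 20 of the 37 genes (54.1%, beside 21.8% of 27025 genes with a promoter), the E-box for 7 (18.9%, beside 8.09%) and the Sp1 box for 25 (67.6%, beside 38.2%). A gene with several promoters counted if any held the motif, and the 27025 genes were taken whether expressed or not. Per promoter, ACGTG was in 41.4% of 58, beside 19.6% of 32851. The E-box was in 12.1%, beside 7.15%, and the Sp1 box in 48.3%, beside 35.7%. ACGTG was found for 3 of the 5 genes that were higher, for 8 of the 12 lower genes with a promoter in the table and for 8 of 18 that did not pass. The base composition of these promoters was not matched to that of other genes, and a match is a description of the letters.

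The promoters of Slc16a1, which passed as lower under every alternative but the constant-sum scaling over all isoforms, and of Ldha, which has the most matches, are shown with ACGTG or its reverse complement in capitals. They lie on the plus strand of GRCm38.p6 at chr3:104638414-104638713 for Slc16a1 and chr7:46845554-46845853 for Ldha. Slc16a1 holds 3 matches, 2 of them in an E-box, and Ldha holds 5, of which 4 lie in 2 E-boxes.
Slc16a1: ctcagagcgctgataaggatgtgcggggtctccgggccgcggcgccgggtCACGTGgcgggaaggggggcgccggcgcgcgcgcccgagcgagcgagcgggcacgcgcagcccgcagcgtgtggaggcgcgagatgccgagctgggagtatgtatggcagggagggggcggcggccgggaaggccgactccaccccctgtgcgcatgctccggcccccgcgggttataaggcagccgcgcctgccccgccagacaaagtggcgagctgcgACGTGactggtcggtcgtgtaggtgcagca
Ldha: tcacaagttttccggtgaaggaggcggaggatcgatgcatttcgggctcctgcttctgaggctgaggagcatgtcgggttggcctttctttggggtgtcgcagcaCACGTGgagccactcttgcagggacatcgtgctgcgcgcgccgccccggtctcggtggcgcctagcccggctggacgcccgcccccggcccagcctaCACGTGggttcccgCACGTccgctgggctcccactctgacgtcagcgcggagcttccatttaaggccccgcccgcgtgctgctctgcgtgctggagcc

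Neighbouring pathways were read from the same fit, as 70 genes in 6 lists, of which 69 were found and 52 could be tested. Without doxycycline 16 passed as higher (30.8% of the 52, beside 19.7% of all genes) and 10 as lower (19.2%, beside 21.3%). The median change of the 52 was 0.09. The pentose phosphate pathway branches off glucose phosphate. Of its 8 genes, 3 rose (37.5%, beside 19.7% of all genes), 1 fell (12.5%, beside 21.3%) and 4 did not pass. Rpia, the ribose phosphate isomerase, had 17.5 and 18.5 FPKM without doxycycline, against 7.57 and 7.03 FPKM with it, and rose by 1.25 ± 0.09 (limma adjusted p = 0.00184). H6pd, the dehydrogenase of the endoplasmic reticulum, rose by 0.74, Pgd rose by 0.39, and Pgls fell by 0.48.

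Of 9 tested genes for other glycolytic and gluconeogenic enzymes, 2 rose (22.2%, beside 19.7% of all genes) and 4 fell (44.4%, beside 21.3%). Pgm2 rose by 0.59 and Ldhd by 0.62, and Bpgm, which makes the bisphosphoglycerate that tunes haemoglobin, fell by 0.71. Of 9 tested genes for other transport and pyruvate entry, 2 rose (22.2%, beside 19.7% of all genes), 1 fell (11.1%, beside 21.3%) and 6 did not pass. Slc2a5, the fructose transporter, fell by 0.72. Mpc1, a subunit of the mitochondrial pyruvate carrier listed as Brp44l, had 28.4 and 29.3 FPKM without doxycycline, against 18.9 and 18.3 FPKM with it, and rose by 0.62 ± 0.08 (limma adjusted p = 0.00504). Mpc2, its partner listed as Brp44, rose by 0.40 ± 0.09 (limma adjusted p = 0.0200). Both carrier genes ran against Pdha1 and Pdhb, which fell.

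The hypoxia factor pathway is known to drive many glycolytic genes. Of its 8 genes, 4 rose (50%, beside 19.7% of all genes), 1 fell (12.5%, beside 21.3%) and 3 did not pass. Hif1a, the oxygen-regulated subunit, had 40.9 and 37.1 FPKM without doxycycline, against 60.3 and 56.6 FPKM with it, and fell by 0.58 ± 0.09 (limma adjusted p = 0.00878). Epas1, its paralog, had 16.5 and 19.4 FPKM without doxycycline, against 6.12 and 6.84 FPKM with it, and rose by 1.40 ± 0.12 (limma adjusted p = 0.00226). The hydroxylases that mark these subunits for loss or silence them rose in part: Egln1 by 0.82, Egln3 by 1.35 and Hif1an by 0.67, while Egln2 did not pass (0.09).

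Hypoxia targets outside glycolysis were mixed. Of 10 tested genes, 3 were higher (30%, beside 19.7% of all genes), namely P4ha1, Ndrg1 and Mxi1, by 0.56 to 0.84. Vegfa was the 1 lower gene (10%, beside 21.3%), by 0.52, and 6 did not pass. Of 8 genes of glucose sensing, 2 rose (25%, beside 19.7% of all genes), 2 fell (25%, beside 21.3%) and 4 did not pass. Txnip, which restrains glucose uptake, had 164 and 162 FPKM without doxycycline, against 71.6 and 69.8 FPKM with it, and rose by 1.20 ± 0.08 (limma adjusted p = 0.0017). Its relative Arrdc4 fell by 0.64, and Prkaa1, a catalytic subunit of the energy sensor AMPK, rose by 0.59. Myc, a transcription factor known to raise glycolytic genes, had 5.47 and 7.57 FPKM without doxycycline, against 17.0 and 18.4 FPKM with it, and fell by 1.39 ± 0.16 (limma adjusted p = 0.00403). Whether any of these moves with the glycolytic genes beyond the difference between the conditions was not tested.

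**Figure D5:**
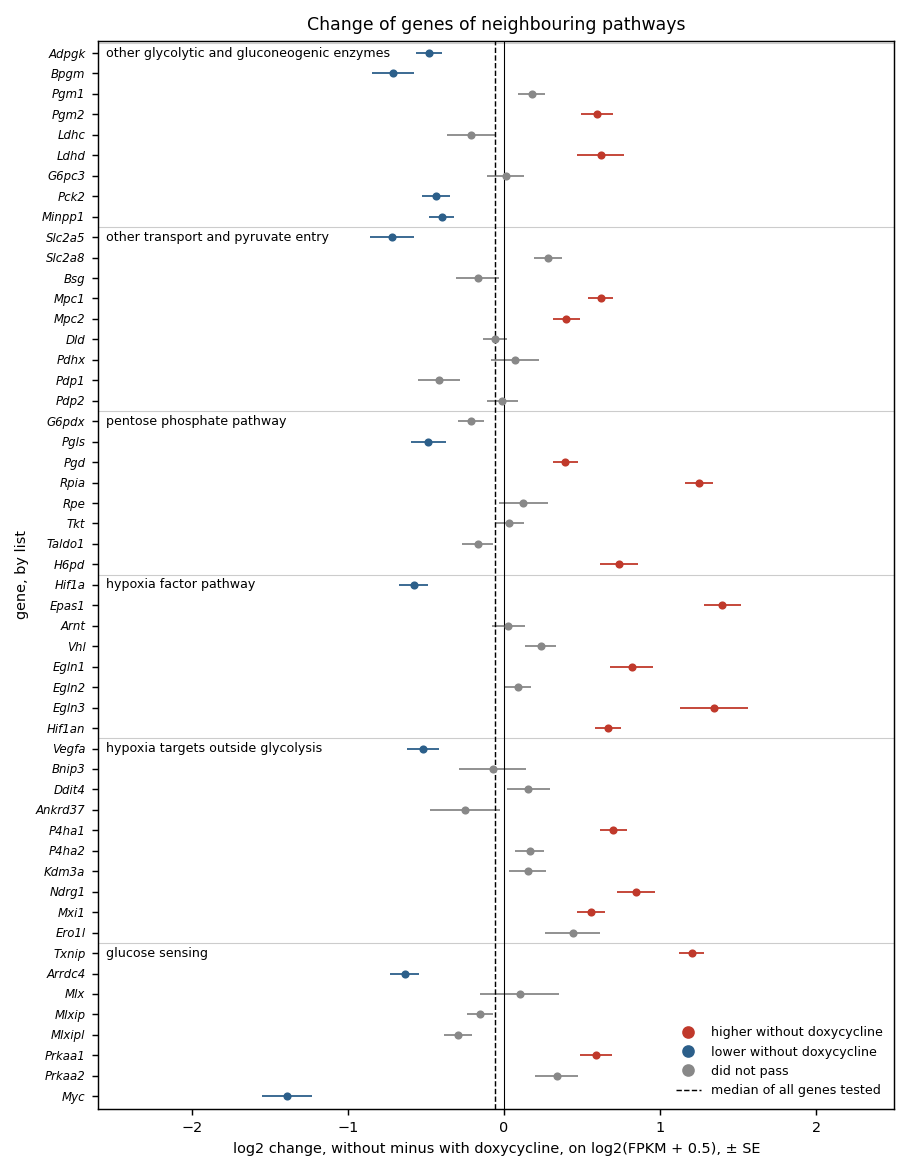
Log2 change without minus with doxycycline, with standard errors, of the 52 tested genes of neighbouring pathways, by list; red genes passed higher, blue genes passed lower, grey genes did not pass, and the dashed line is the median of all genes tested, -0.06. Epas1, Egln3, Rpia and Txnip lie above 1 and Myc lies at -1.39.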

How the data were processed

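The deposited FPKM values are given by the authors for each assembled isoform; the submitters' processing notes name TopHat2 2.0.9, Cufflinks 2.1.1 and build NCBIM37. Isoforms of at least 200 nt with class code = or j in the deposited annotation were summed per gene (141569 of 181027), since shorter isoforms held at least 98.9% of a library's summed FPKM. FPKM is no count, so no count test was run: the 13207 genes whose mean reached 1 FPKM without or with doxycycline entered limma 3.58.1 (trend) in R 4.3.3 on log2(FPKM + 0.5), two-sided, with 2 residual and 3.21 prior degrees of freedom. The numbers 0 and 1 match neither replicate label, so libraries were treated as unpaired. The 2 spike-in samples were not used. The members, the lists of neighbouring pathways, the tests and the rule for naming genes were chosen with earlier results of these data known. The rule gives library values to called genes with an absolute log2 change of at least 0.5 and to the most abundant paralog of each step, and names genes of the other lists that passed by 0.5 or more. On simulated data with 200 of 13207 genes changed, 0% of the genes set to a log2 change of 0.5 and 43% of those set to 1 were recovered (4.44% of calls false); with 5000 changed, 72.8% and 97.3% were (3.1% false). Alternatives covered the pseudocount, filter, scaling, isoforms used, left-out libraries and a replicate block; setting the median change to 0 was added after seeing the data. Symbols are those of the files, and gene coordinates are on NCBIM37, counted from 1. Sequences come from RefSeq (GRCm38.p6) and GENCODE (GRCm38), which were not used for positions on NCBIM37. Shares were computed in Python 3.11.15.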

Additional observations from a re-analysis of the deposited data

How the results depend on the processing

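Pseudocounts of 0.1 and 1 and a length minimum of 500 nt left every count of calls within 1.5 times. The number of all genes called, 5417 in the fit as designed, was 2053 with the most abundant isoform alone, 2590 with class code = alone and 1 with FPKM rescaled to TPM over all isoforms, and lay between 3285 and 4427 with a library left out. Of the glycolysis and pyruvate genes, the 5 higher calls became 3 with a minimum of 5 FPKM, a filter that Pgam2 and Pdk4 do not reach, 8 with TPM over the isoforms from 200 nt up and 0 with TPM over all isoforms. The 13 lower calls became 7 with no filter on low values, 7 with TPM over the isoforms from 200 nt up, 0 with TPM over all isoforms, 5 with the most abundant isoform, 5 with class code = alone, and 3 to 8 with a library left out. Of all genes tested, TPM over the isoforms from 200 nt up called 29.6% higher and 13.5% lower. The share of all genes called lower was 8.54% with no filter, 7.91% with the most abundant isoform and 10.6% with class code = alone. In the fit as designed that share was 21.3%. Hk1 lost its call with the most abundant isoform and with class code = alone. Of neighbouring genes, the 16 higher calls became 8, 9 and 0 with the most abundant isoform, class code = alone and TPM over all isoforms. The 10 lower calls there became 3, 3 and 0 under the same settings, 6 with TPM over the isoforms from 200 nt up, and 5 to 11 with a library left out. Both TPM scalings shift all genes of a library alike; the cause of the other moves was not tested. Setting the median change of all genes to 0, chosen after seeing the data, gave 6 higher and 9 lower calls among the 37 genes. Of all genes, 22.2% were then higher and 17.4% lower.

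Signs turned only in changes that had not passed or under TPM over all isoforms. That scaling gave Gpi1 -0.4812, Pfkp -0.5362, Pfkfb2 -0.4486, Pfkfb3 -0.3973, Pfkfb4 -0.1976, Tpi1 -0.2657, Pdk2 -0.3554, Pdk3 -0.478 and Mxi1 -0.008707. TPM over the isoforms from 200 nt up gave Slc2a4 0.1189, Hk2 0.06793, Tigar 0.1561 and Dlat 0.03198, and setting the median change to 0 gave Slc2a4 0.01345 and Tigar 0.05064. Library medians set equal gave Pfkp -0.03465, and the most abundant isoform gave Gapdh 0.1064. With a library left out, the changes ran from -0.1009 to 0.01778 for Slc2a4, -0.06778 to 0.124 for Pfkp, -0.009066 to 0.2406 for Pfkfb2, -0.09792 to 0.08918 for Tigar and -0.03005 to 0.2027 for Pdk3.

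A fit with the column number as a replicate block called 8157 genes, with 6 higher and 19 lower among the glycolysis and pyruvate genes. That fit called 27.5% of all genes tested higher and 34.3% lower. Of the genes that did not pass, it called Eno1 (adjusted p = 0.00688), Slc16a3 (0.0124), Pfkl (0.0141), Slc2a1 (0.0143), Ldhb (0.0152), Gapdh (0.0168) and Tpi1 (0.0259). The numbers are not those of the labels, so this pairing is a hint from the data. Over the tested genes, deviations from the condition means correlated at 0.461 between the libraries numbered 0. With 2 libraries per condition, those numbered 1 give the same value by construction, so this is 1 observation. Libraries of the same number also share how their FPKM step, whole for 100% of low values in both numbered 1 and for 34.3% and 33.9% in those numbered 0; the part of this in the results was not tested. Depth is known for the libraries numbered 1 alone, which limits what can be said of low genes such as Hk3 and Pklr.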
